A study of Mus musculus with 2 samples.

Results

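The cells described here were sorted from the yolk sac of wild-type C57Bl/6 mouse embryos at embryonic day 9.5 (E9.5) as live cells positive for VE-cadherin, an adhesion protein of endothelial junctions. Members were the wells of the E9.5 chip annotated as yolk sac and VE-cadherin positive with at least 500 detected genes, and 325 of 326 such wells met the rule, out of 2954 wells in the whole series and 1283 kept sorted wells on that chip. The well left out held 401 genes and 756 counts, and the kept well with the fewest held 636 genes and 1543 counts. The other groups used here were the E9.5 cells positive for VE-cadherin from the aorta-gonad-mesonephros (AGM) region, with 299 wells, the E9.5 yolk sac cells negative for VE-cadherin, with 305 wells, and the E11.5 yolk sac cells positive for VE-cadherin, with 357 wells. Levels are also given for the E9.5 AGM cells negative for VE-cadherin, with 354 wells, and the E11.5 AGM cells positive for it, with 287 wells. All groups were wild-type cells negative for the dead-cell dye 7AAD, and no treatment is given for any of them. Cells were dispensed into the nanowells of an ICELL8 chip, where wells with a single live cell were picked by imaging, and each stage had its own chip. Each group is therefore 1 pool from 1 sort, the number of embryos in it is not given in the sources used here, and no difference below has a replicate check. No test across samples was possible, wells of a pool are not replicates of a condition, and all intervals are 95% intervals that cover counting error only.

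The yolk sac is the extra-embryonic membrane in which the first blood and the first vessels of the embryo form. Its vascular plexus is lined by endothelial cells, some of which are haemogenic: under the transcription factor Runx1 they release blood progenitors, including erythro-myeloid progenitors, into the circulation. Endothelium of sinusoidal type, known best from adult liver, carries endocytic receptors such as Stab2, Lyve1 and Mrc1 that take up hyaluronan, glycoproteins and other waste from blood and pass it to lysosomes, and transcription factors of the Maf family take part in keeping that state.

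Promoter sequences are shown for those of the genes around which the wells vary that RefSeq promoter tables (GRCm38.p6) hold: Stab2 and Mrc1 of the scavenger genes and Runx1 of the blood genes, 3 of 7 genes looked up. Each window is written on the strand of its gene and spans the annotated start. Capitals mark matches to TGTGGT, the letters bound by RUNX factors, or to its reverse complement ACCACA, and to the E-box letters CACGTG. The Stab2 window lies at chr10:87007893-87008192 (minus strand), the Mrc1 window at chr2:14229164-14229463 (plus strand) and the window of the first Runx1 promoter at chr16:92826025-92826324 (minus strand).
Stab2: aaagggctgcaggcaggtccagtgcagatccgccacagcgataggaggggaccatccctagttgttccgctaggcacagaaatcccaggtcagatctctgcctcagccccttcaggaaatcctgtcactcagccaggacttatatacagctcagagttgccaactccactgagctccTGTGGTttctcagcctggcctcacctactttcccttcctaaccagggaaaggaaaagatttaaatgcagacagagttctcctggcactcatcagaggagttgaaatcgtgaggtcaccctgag
Mrc1: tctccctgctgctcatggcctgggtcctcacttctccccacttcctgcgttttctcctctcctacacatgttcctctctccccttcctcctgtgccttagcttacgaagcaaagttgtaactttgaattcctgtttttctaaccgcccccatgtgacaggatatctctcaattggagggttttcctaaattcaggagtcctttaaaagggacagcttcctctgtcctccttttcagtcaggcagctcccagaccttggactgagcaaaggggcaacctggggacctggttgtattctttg
Runx1: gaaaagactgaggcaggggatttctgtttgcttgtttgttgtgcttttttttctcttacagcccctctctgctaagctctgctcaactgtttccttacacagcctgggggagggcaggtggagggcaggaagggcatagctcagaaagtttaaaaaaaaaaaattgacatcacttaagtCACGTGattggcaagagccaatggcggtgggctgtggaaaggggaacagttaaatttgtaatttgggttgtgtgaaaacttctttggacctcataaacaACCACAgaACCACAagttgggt
The Stab2 window held TGTGGT at its letter 178, which is -73 from the start on which the windows are set. The Stab2 gene range given below has its start at 87008038 on the minus strand, so the match lies downstream of that start. The Runx1 window held ACCACA at positions 28 and 36 from the window's start site and CACGTG at -71. The Mrc1 window held none of the 5 motifs searched on both strands, and neither did the window of another Runx1 promoter at chr16:92697280-92697579. Over all 32851 promoter windows of the same length, 16.8% held TGTGGT, 7.15% CACGTG, 8.86% the ETS letters CCGGAAG, 11.2% the GATA letters AGATAA and 19.5% the MAF half-site letters TGCTGA on either strand. A match of this kind describes the letters and is not a measured binding site.

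Depth differed between the pools. The E9.5 yolk sac positive pool held 1382810 counts, with a median of 3961 counts (range 1543 to 16701) and 1504 genes per well. The AGM positive pool had a median of 5832 counts and 1831 genes, the yolk sac negative pool 12452 counts and 2240 genes, and the E11.5 yolk sac positive pool 3008 counts and 762 genes. Haemoglobin genes took a median of 19.0% of a well's counts (range 4.68% to 32.0%), and were found in all 325 wells. The same genes took a median of 24.4% in the AGM positive pool, 38.1% in the yolk sac negative pool, 34.4% in the E11.5 pool and 23.6% in the 48 negative control wells of the E9.5 chip, which held a median of 125 counts. Over those 48 wells together, 6452 counts in all, there were 2 counts each of Cdh5 and Lyve1, 1 each of Stab2 and Mrc1, 3 of Maf and 0 of Gpr182, Runx1 and Rac2. Scrublet marked 2 of the 325 wells as doublets, and they were kept. Of the well barcodes, 473 occurred on both chips, which held 1378 (E9.5) and 1576 (E11.5).

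The endothelial label held. All 16 endothelial markers had counts in the pool, every one of the 325 wells held at least 1 of them, and the median well held 6 (range 1 to 14). At least 3 were found in 303 wells (93.2%). Cdh5, which encodes VE-cadherin and lies at chromosome 8, 104101613 to 104144504 (GRCm38, as all gene positions here), stood at 483 CPM (counts of a gene per 1e+06 counts of the pool) and had a count in 79.1% of the wells. Its level was 437 CPM in the AGM positive pool and 5.95 CPM in the yolk sac negative pool, where 7.54% of the wells had a count at a greater depth per well. Since the cells were sorted on this protein, the level checks the sort and is no finding.

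Receptors of scavenger endothelium were high in the pool and low in each of the other E9.5 pools. Stab2, a receptor for hyaluronan and other ligands (chromosome 10, 86841194 to 87008038), stood at 939 CPM, against 16.3 in the AGM positive, 9.06 in the yolk sac negative and 8.83 in the AGM negative pool. Lyve1, a hyaluronan receptor of lymphatic and embryonic endothelium (chromosome 7, 110850607 to 110862953), stood at 952 CPM, against 25.8, 11.9 and 21.8 in the same order. Mrc1, the mannose receptor (chromosome 2, 14229414 to 14332023), stood at 366 CPM, against 7.88, 4.14 and 4.71. The pool thus stood far above each of the 3 other E9.5 pools for all of these receptors. Gpr182, an atypical chemokine receptor of sinusoidal and lymphatic endothelium (chromosome 10, 127749602 to 127751798), stood at 98.4 CPM, against 2.10, 0.259 (1 count) and 0 counts. Maf, the transcription factor (chromosome 8, 115703253 to 115706894), stood at 207 CPM, against 3.15, 7.25 and 8.24. The 5 genes had counts in 32.0% (Gpr182) to 92.9% (Lyve1) of the pool's wells.

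Of the 8 blood genes used below to sort the wells, Runx1 and Rac2 are shown in full, and Lcp1, an actin-bundling protein of leukocytes, was an exception to their pattern, at 65.8 CPM in the pool and 79.9 in the AGM positive pool. Runx1 (chromosome 16, 92601466 to 92826074) stood at 86.8 CPM, against 23.1 in the AGM positive, 18.4 in the yolk sac negative and 1.18 (2 counts) in the AGM negative pool. Rac2, a GTPase of blood cells (chromosome 15, 78559169 to 78572783), stood at 107 CPM, against 4.21, 13.7 and 2.94. At E11.5 the order of the positive pools was the other way round for these 2 genes: Runx1 stood at 48.1 CPM in the yolk sac and 142 in the AGM, and Rac2 at 20.4 and 82.3. The scavenger genes stayed higher in the yolk sac at E11.5, with Stab2 at 768 against 76.4 CPM, Lyve1 at 325 against 94.1 and Mrc1 at 552 against 312.

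**Figure D1:**
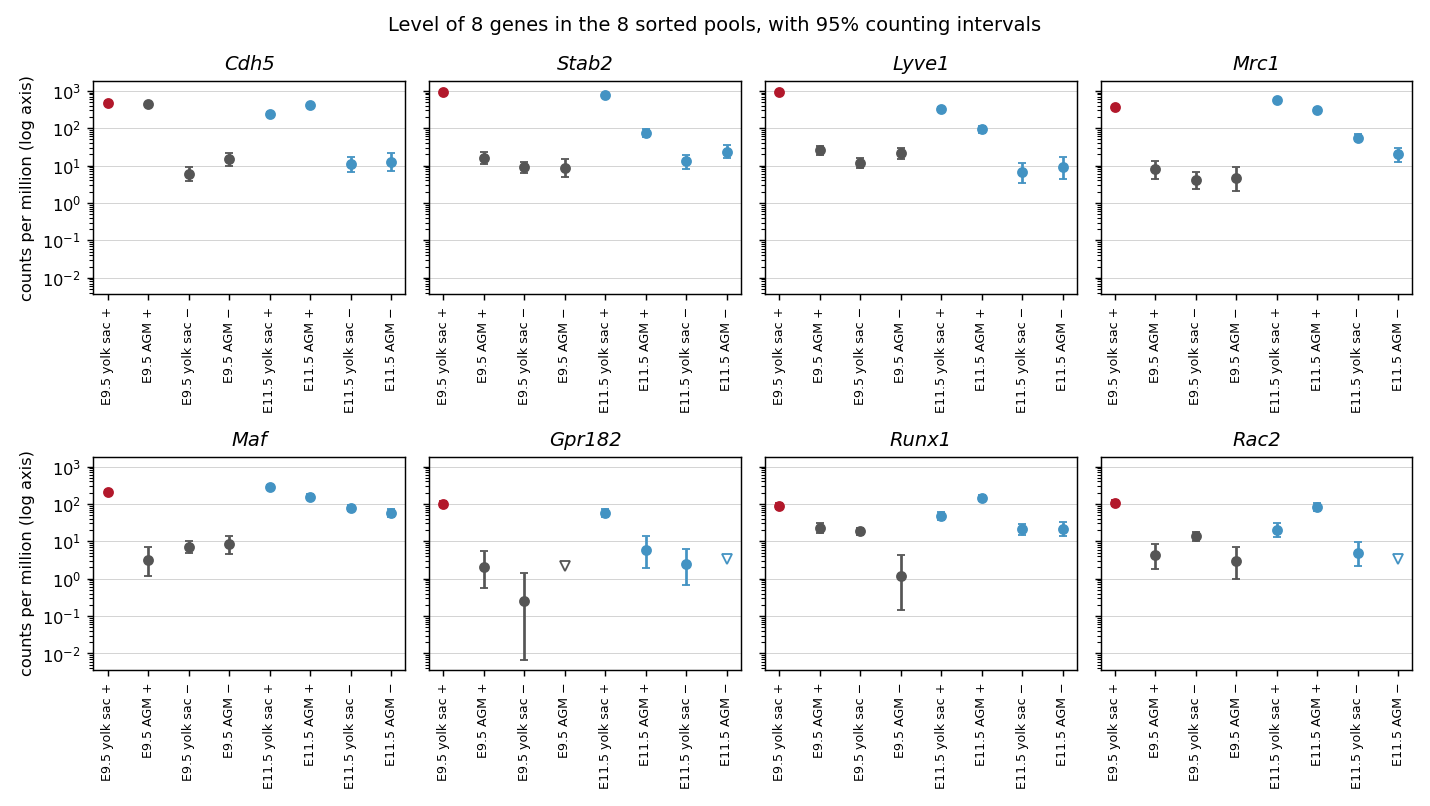
Level of 8 genes (CPM, log axis) in the 8 sorted pools, 1 point per pool with its 95% counting interval; the E9.5 yolk sac positive pool is red, other E9.5 pools grey and E11.5 pools blue, and open triangles give the upper limit of a pool with 0 counts. Cdh5 is alike in the 2 positive E9.5 pools (483 and 437 CPM), while Stab2, Lyve1, Mrc1, Maf and Gpr182 are high at E9.5 in the yolk sac positive pool alone.

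Compared with AGM cells of the same gate on the same chip, the pool differed in receptors of clearance and in blood genes, and little in general endothelial genes. Of 9143 genes with at least 20 counts over the pair, 864 (9.45%) were at least 2-fold higher and 327 (3.58%) at least 2-fold lower in the yolk sac pool, with a median log2 ratio over all genes of 0.12. Higher genes were thus 72.5% of those 2-fold apart, and 62.2% with TMM factors or 63.0% with totals that leave out haemoglobin, mitochondrial genes and the ribosomal RNA row Gm42418. The 16 endothelial markers had a median log2 ratio of 0.29, with 0 higher and 1 lower: Emcn, a sialomucin of venous and capillary endothelium, stood at 60.0 CPM against 184, a log2 ratio of -1.62 (-1.98 to -1.27). Kdr, the main VEGF receptor, stood at 325 against 271 CPM, and Pecam1, a junction protein, at 249 against 209, log2 ratios of 0.26 and 0.25.

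Of 16 clearance receptors listed, 12 had enough counts, and their ratios are given singly. Stab2, Lyve1, Mrc1 and Gpr182 were markers given for the pool or known to vary in it. Mrc1, Gpr182, Cd36 and Oit3 passed the minimum mostly through the pool. A count of higher members or a median over the list would therefore be largely set in advance. The summed level of the list was 3248 CPM in the pool, of which Stab2 gave 939 and Lyve1 952, and 283 in the AGM. Log2 ratios were 5.85 (5.34 to 6.41) for Stab2, 5.21 (4.80 to 5.65) for Lyve1 and 5.54 (4.80 to 6.38) for Mrc1, which are markers given for the pool or were known to vary in it. Beyond them, Cd36, a receptor for fatty acids and oxidised lipoproteins, stood at 99.8 CPM against 1.58 (3 counts), a log2 ratio of 5.98 (4.41 to 8.28). Oit3, a secreted protein of liver sinusoids, stood at 75.2 against 2.63 CPM, and Clec14a, an endothelial lectin, at 129 against 25.2. Colec12, a scavenger collectin, stood at 259 against 36.8 CPM, and Stab1, the relative of Stab2, at 200 against 90.9, log2 ratios of 2.81 and 1.14. The 2 tested members that were not 2-fold apart were Scarb1 (0.77) and Scarf1 (0.52).

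Genes that handle what such receptors bring in were higher in part. Of 31 genes of endocytosis and the lysosome, 10 were at least 2-fold higher and 0 lower, where 9.45% and 3.58% of all genes were. The median of the list was 0.65, and its summed levels were 2718 and 1454 CPM. Dab2, a clathrin adaptor, stood at 272 CPM against 73.6, a log2 ratio of 1.89 (1.60 to 2.18). Lgmn, a lysosomal protease, stood at 63.6 against 9.46 CPM, and Npl, which degrades sialic acid, at 119 against 20.0, log2 ratios of 2.75 and 2.57. Ehd3, which shapes recycling endosomes, stood at 62.2 against 9.46 CPM, and Ctsl, the protease cathepsin L, at 265 against 110. Core clathrin and adaptor genes were closer: Cltc, the clathrin heavy chain, had a log2 ratio of 0.54 and Ap2b1 one of -0.20. Of 9 tested transcription factors linked to sinusoidal endothelium, 3 were at least 2-fold higher, against 9.45% of all genes. They were Maf, already known to vary in the pool, at 6.04 (4.90 to 7.49), Tfec, a relative of Mitf, at 36.2 against 5.78 CPM, and Meis2, a homeodomain factor, at 181 against 44.2. Maf and Tfec passed the minimum of counts mostly through the yolk sac pool, so the count of 3 was partly set in advance.

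The matrix and growth factor lists held single members that stood out. Of 14 basement membrane genes, 5 were at least 2-fold higher, against 9.45% of all genes. They were Adamts5 and Adamts1, proteases that cut proteoglycans, the transmembrane collagen Col13a1, Nid2 and Sparcl1. Col13a1 and Adamts5 passed the minimum of counts mostly through the yolk sac pool, so the count of 5 was partly set in advance. Col13a1 stood at 65.8 CPM against 3.68, a log2 ratio of 4.16 (3.06 to 5.52), and Adamts5 at 45.6 against 2.10. The laminin chain Lamb1 was the 1 lower member, at 47.0 against 120 CPM, while Col4a1, the main collagen of the basement membrane, stood at 627 against 406. Of 13 genes of VEGF and Tie signalling, Vegfc, a ligand for lymphatic and venous growth, stood at 115 against 42.0 CPM, and Angpt1, a ligand of Tek, at 69.4 against 10.5. Angpt2 was the other higher member, with 18 against 8 counts, a log2 ratio of 1.63 (0.36 to 3.04). Of 13 arterial genes, Hey1 (4.34 against 16.3 CPM) and Hey2 (2.89 against 10.5 CPM), targets of Notch, were lower and Vegfc was higher. Of 18 cell cycle and 14 DNA replication genes, 0 were 2-fold apart.

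Some genes of blood cells were higher in the pool as well. The 16 macrophage markers had summed levels of 357 and 31.0 CPM. For 8 of them there were 20 counts over the pair, mostly through the yolk sac pool, so a count of higher markers would be fixed by that minimum. Lyz2, which encodes lysozyme, stood at 73.8 CPM against 1.58 (3 counts), a log2 ratio of 5.55 (3.96 to 7.85), with 27.5% of its counts in 1 well. The progenitor genes, Rac2 among them, had summed levels of 801 and 446 CPM. A count of higher members would again be fixed in part by the minimum, which genes such as Myb passed mostly through the yolk sac pool. Adgrg1, an adhesion receptor, stood at 79.5 against 10.5 CPM, and Alox5ap, of leukotriene synthesis, at 57.9 against 5.78. Myb, a factor of definitive progenitors, stood at 13.7 against 1.05 (2 counts), a log2 ratio of 3.71 (1.66 to 6.85). Kit, the receptor for stem cell factor, stood at 63.6 against 50.5 CPM, a log2 ratio of 0.33 (-0.10 to 0.77). Of 8 factors of the endothelial-to-blood transition, Runx1, at 1.91 (1.40 to 2.44), and Gata2, at 1.46 (0.23 to 2.80), were higher, and Fli1, Erg, Tal1, Lyl1, Lmo2 and Cbfb lay between -0.26 (Lmo2) and 0.68 (Lyl1). Plek, of platelets and leukocytes, stood at 131 against 3.68 CPM, and Pf4, a platelet chemokine, at 52.1 against 4.21. Of the granule protein genes of granulocytes, Mpo stood at 45.6 against 1.58 CPM (3 counts), a log2 ratio of 4.85 (3.24 to 7.17), and Prtn3 was at least 16.5-fold higher, from 36 against 0 counts with a floor of 3.

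Markers of neighbouring yolk sac layers moved with these lists. The 11 visceral endoderm markers in the tables, such as Afp and Ttr, had summed levels of 119 CPM in the pool and 9.99 in the AGM. The mesenchyme markers, such as the collagens Col1a1 and Col3a1, had summed levels of 73.8 and 30.0 CPM. Both sums were below those of the yolk sac negative pool, at 338 and 857 CPM. The 14 tested erythroid genes had 0 members 2-fold apart and a median of -0.30. The part of RNA from other cells in the ratios above was not tested.

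Against the negative gate of the same yolk sac, the pool carried the endothelial programme with the clearance receptors, and the negative pool the erythroid, mesenchymal and endodermal genes. Of 9371 genes, 3914 (41.8%) were at least 2-fold higher and 239 (2.55%) lower in the positive pool, and the all-gene median log2 ratio was 0.82. Higher genes were 94.2% of those 2-fold apart, but 66.2% with TMM factors, where the median was 0, and 83.6% with totals without haemoglobin, mitochondrial genes and Gm42418. List values are therefore given relative to the all-gene median. Endothelial markers stood 4.91 above it, with 16 of 16 at least 2-fold higher, and clearance receptors 5.50 above, with 12 of 13 higher. These lists include Cdh5, the gene of the sort, and the given or known genes Stab2, Lyve1, Mrc1 and Gpr182. Members such as Cldn5, Gpr182 and Cd36 passed the minimum mostly through the pool, so these counts were partly set in advance. Stab2 had a log2 ratio of 6.70 (6.21 to 7.22), Lyve1 6.32 and Mrc1 6.46, and Cd36 was at least 128-fold higher, from 138 against 0 counts. Lrp1, a receptor of many ligands, was the lower member, at 2.89 CPM (4 counts) against 6.73, a ratio of -1.22 with an interval of -3.20 to 0.31. Basement membrane genes stood 2.51 above, with 14 of 14 higher, and lysosomal genes 0.46 above, with 23 of 32 higher. Among the basement membrane genes, Col13a1 and Adamts5 passed the minimum mostly through the pool.

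Blood lists differed by lineage in this comparison. Macrophage markers had summed levels of 357 CPM in the pool and 48.2 in the negative pool. Progenitor genes, Rac2 among them, stood 1.96 above the all-gene median, with 11 of 16 higher and 0 lower, where 41.8% of all genes were higher. Members such as Myb and Ptprc passed the minimum mostly through the pool, so this count and median were partly set in advance. Csf2rb, a cytokine receptor chain, stood at 23.1 against 40.9 CPM, and Gfi1b, a factor of erythroid cells and megakaryocytes, at 41.2 against 52.3. Runx1 had a log2 ratio of 2.24 (1.80 to 2.68) and Rac2 one of 2.96 (2.50 to 3.44). Megakaryocyte genes stood 0.71 below, as Pf4 was at 52.1 CPM against 198 and Thbs1 at 23.1 against 71.5, while Plek was at 131 against 64.5. Erythroid genes stood 1.88 below (8 of 14 lower), and the summed visceral endoderm and mesenchyme levels were those given above. Acta2, the smooth muscle actin, stood at 10.1 CPM against 93.7, and the smooth muscle list summed to 32.5 against 166 CPM.

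By the smaller of their ratios, the genes furthest above both E9.5 comparison pools were Cd36, Stab2, Gpr182, Lyz2, Mrc1, Lyve1, Tspan7, Oit3, Maf, Adamts5, Col13a1, Hivep3, Fcgrt, Gpm6b and Rgs7bp. Besides those described above, Tspan7, a tetraspanin, stood at 62.2 CPM against 0.526 (1 count) in the AGM positive pool and 1.81 in the yolk sac negative pool, log2 ratios of 6.89 (4.37 to 12.21) and 5.10. Fcgrt, the receptor that recycles IgG and albumin, stood at 83.2 CPM against 1.58 (3 counts) and 6.47, log2 ratios of 5.72 (4.14 to 8.02) and 3.68. Hivep3, a zinc finger factor, stood at 64.4 against 4.21 and 1.29 CPM, Gpm6b, a membrane proteolipid, at 75.9 against 6.83 and 3.37, and Rgs7bp, a partner of RGS proteins, at 58.6 against 5.78 and 1.29. For all but Lyz2 of these 15 genes, no well held more than 8.79% of the counts.

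Genes lower than in both pools differed less. Tagln, of the smooth muscle cytoskeleton, stood at 5.79 CPM against 39.4 and 30.0, log2 ratios of -2.77 (-4.03 to -1.72) and -2.38, and Acta2 had ratios of -1.66 and -3.21. The remaining genes were Rab3il1, Dmtn, Add2, Kdm7a, Slc20a1, Epor, Ermap and Ssx2ip, of which Dmtn and Add2 belong to the red cell membrane skeleton and Epor is the erythropoietin receptor. Their log2 ratios to the AGM lay between -1.49 (Kdm7a) and -0.73 (Ssx2ip), so that Kdm7a alone was 2-fold lower there. Epor stood at 15.9 CPM against 26.8 and 34.2, and Ermap, a red cell adhesion protein, at 57.9 against 96.7 and 144.

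**Figure D2:**
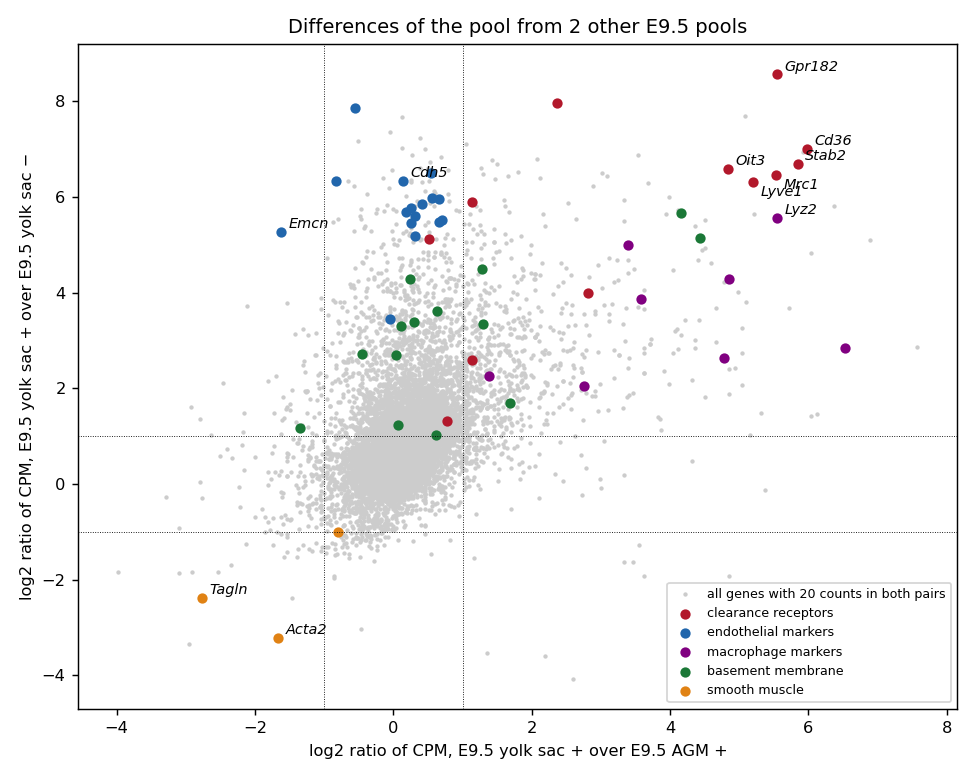
Each point is a gene with at least 20 counts over both pairs, by its log2 ratio of CPM over the E9.5 AGM positive pool (x axis) and over the E9.5 yolk sac negative pool (y axis); lists are coloured, dotted lines mark 2-fold, and a pool with 0 counts is set to 3 counts. Endothelial markers lie high on the y axis and near 0 on the x axis, where their median is 0.29, and clearance receptors such as Cd36, Stab2 and Gpr182 lie far out on both.

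The E11.5 yolk sac pool of the same gate was on the other chip, so stage and chip cannot be told apart. Of 8522 genes, 3046 (35.7%) were at least 2-fold higher and 441 (5.17%) at least 2-fold lower at E9.5, with an all-gene median of 0.70. Higher genes were 87.4% of those apart, and 52.9% with TMM factors or 43.8% with totals without haemoglobin, mitochondrial genes and Gm42418, so the balance of the counts turned with the scaling. Clearance receptors stood 0.06 above the all-gene median and endothelial markers 0.19 above it. Within the scavenger genes the order changed: Lyve1 was higher at E9.5, at 952 against 325 CPM, a log2 ratio of 1.55 (1.39 to 1.71), and 0.90 or 0.78 with the 2 other scalings. Mrc1 was lower at E9.5, at 366 against 552 CPM, a ratio of -0.59 (-0.76 to -0.43), and -1.25 or -1.36 with them. Maf stood at 207 against 291 CPM, at -0.49. Stab2 stood at 939 against 768 CPM, at 0.29 (0.17 to 0.41), and at -0.36 or -0.48 with the other scalings, so its direction was not fixed.

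Other lists differed more between the stages. DNA replication genes stood 0.65 above the all-gene median and cell cycle genes 0.32 above. At least 2-fold higher at E9.5 were 11 of 14 and 9 of 18 genes, where 35.7% of all genes were, and these counts rest on scaling by the total. Mcm5, of the replicative helicase, stood at 116 against 26.9 CPM, and Ccnb1, the mitotic cyclin, at 99.8 against 28.5. Macrophage markers stood 1.41 below, with Csf1r, the receptor that defines the lineage, at 7.95 against 54.6 CPM and F13a1 at 14.5 against 143, while Lyz2 was higher at E9.5, at 73.8 against 12.2. Rac2 had a log2 ratio of 2.39 (1.78 to 3.07) and Runx1 one of 0.85, which was 0.20 or 0.08 with the other scalings. Visceral endoderm and mesenchyme markers were lower at E9.5, with summed levels of 119 against 8174 CPM and 73.8 against 792. Afp, the fetal plasma protein of visceral endoderm, stood at 24.6 CPM at E9.5 and 4179 at E11.5, a log2 ratio of -7.41 (-7.94 to -6.92). Apoa2 stood at 3.62 against 577 CPM. The other genes furthest below E11.5 were S100g, Fgb, Spink1, Fga, Trap1a and Lum, each with 1 to 3 counts at E9.5.

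Genes furthest above E11.5 were Mmrn1, Ndufb8, Gapdh, Enpp6, Gstp1, Plxdc1, Aaas and Pigl. Several were as low in the E11.5 AGM pool: Gapdh, the glycolytic enzyme, stood at 1224 CPM in both positive E9.5 pools and at 23.6 and 22.3 CPM in both positive E11.5 pools, and Ndufb8, of the respiratory chain, at 49.9 and 52.0 against 0.815 and 1.18 (1 count each). Mmrn1, an endothelial and platelet glycoprotein, differed from them: it stood at 68.0 CPM in the E9.5 pool, 0.815 (1 count) in the E11.5 yolk sac, a log2 ratio of 6.38 (3.87 to 11.70), and 42.3 CPM in the E11.5 AGM. Pigl had 52.8% and Plxdc1 34.2% of their pool counts in 1 well.

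The wells themselves were then compared, to see whether scavenger and blood genes lay in the same cells. To remove differences in depth, 319 wells with at least 2000 counts were thinned to 2000 counts each, and 6 shallower wells were left out. Stab2 had a count in 75.9% of the thinned wells (88.6% of unthinned wells), Lyve1 in 81.2% (92.9%), Mrc1 in 45.1% (65.8%), Maf in 33.5% (52.3%) and Gpr182 in 17.2% (32.0%). In thinned wells of the yolk sac negative pool the shares were 1.97% for Stab2 and Lyve1, 0.987% for Mrc1 and 1.32% for Maf. Runx1 had a count in 11.6% (22.5%) and Rac2 in 13.8% (25.5%), against 3.29% and 1.97% in thinned negative wells. Each of these shares in the pool therefore lay above that background.

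Counts over the 5 scavenger genes Stab2, Lyve1, Gpr182, Mrc1 and Maf ran from 0 to 17 per thinned well, with a median of 5 and a mean of 5.26. At least 1 was found in 313 of 319 wells (98.1%) and at least 2 in 287 (90.0%, 86.1% to 93.0%). In the AGM positive pool 1 of 296 wells had at least 2, in the yolk sac negative pool 0 of 304 (interval up to 1.21%) and in the E11.5 yolk sac pool 221 of 335 (66.0%). A scavenger signal was thus spread over most wells and graded, with no gap in the distribution between low and high wells.

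**Figure D3:**
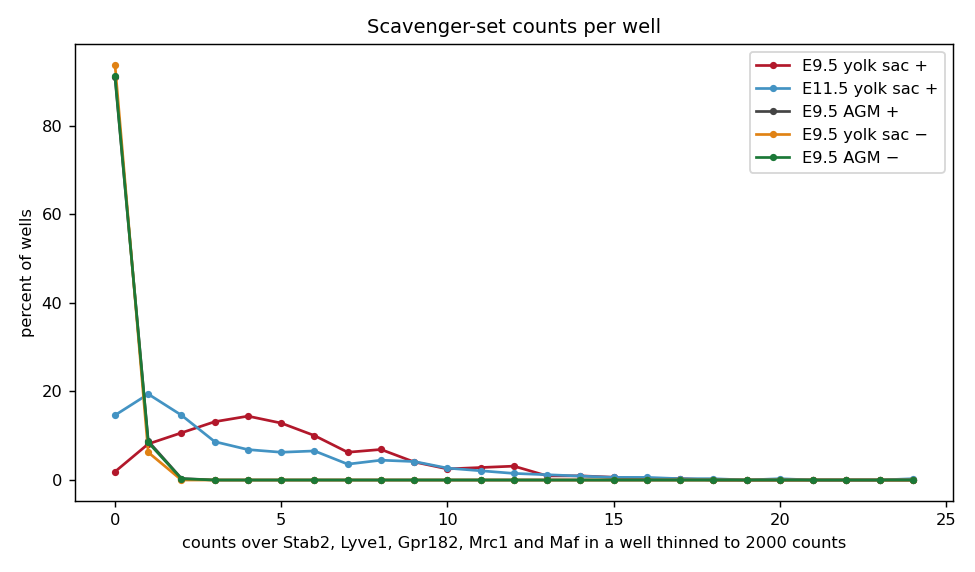
Percent of wells (y axis) by the number of counts over 5 scavenger genes after thinning to 2000 counts (x axis) in 5 pools. The E9.5 yolk sac positive wells spread from 0 to 17 with a median of 5, while 269 of 296 AGM positive wells have 0.

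Counts over 8 blood genes (Runx1, Rac2, Ptprc, Itga2b, Myb, Coro1a, Lcp1 and Spi1) ran from 0 to 6 per thinned well, with a median of 0. At least 1 was found in 140 wells (43.9%), against 25.3% in the AGM positive pool, 12.2% in the yolk sac negative pool and 25.4% at E11.5. At least 2 were found in 38 (11.9%, 8.57% to 15.98%), against 7 of 296 (2.36%) in the AGM positive pool and 27 of 335 (8.06%) at E11.5. With the rule of at least 2 counts of 1 set and 0 of the other, 166 wells (52.0%, 46.4% to 57.6%) were of scavenger type and 3 (0.940%, 0.194% to 2.72%) of blood type, 127 (39.8%) were mixed, with at least 2 counts of 1 set and at least 1 of the other, and 23 were low, with fewer than 2 counts of each set. Of the 127 mixed wells, 92 held exactly 1 blood count, a level also found in part of the wells of the other pools. The classes are ranges of a count and not cell types: 34 scavenger-type or low wells had 1 or 2 scavenger counts with 0 blood counts, and 27 of the 38 blood-rich wells had exactly 2 blood counts. Of the 38 wells with at least 2 blood counts, 35 also held scavenger counts, and the 3 others held 2 to 7 before thinning. Over all thinned wells 313 of 319 held a scavenger count, so the 35 of 38 was largely set in advance. Only 6 wells had 0 scavenger counts, and 3 of these 6 were the blood-type wells. With so few wells at 0, these counts do not decide whether wells rich in blood genes and lacking scavenger genes form a separate group.

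**Figure D4:**
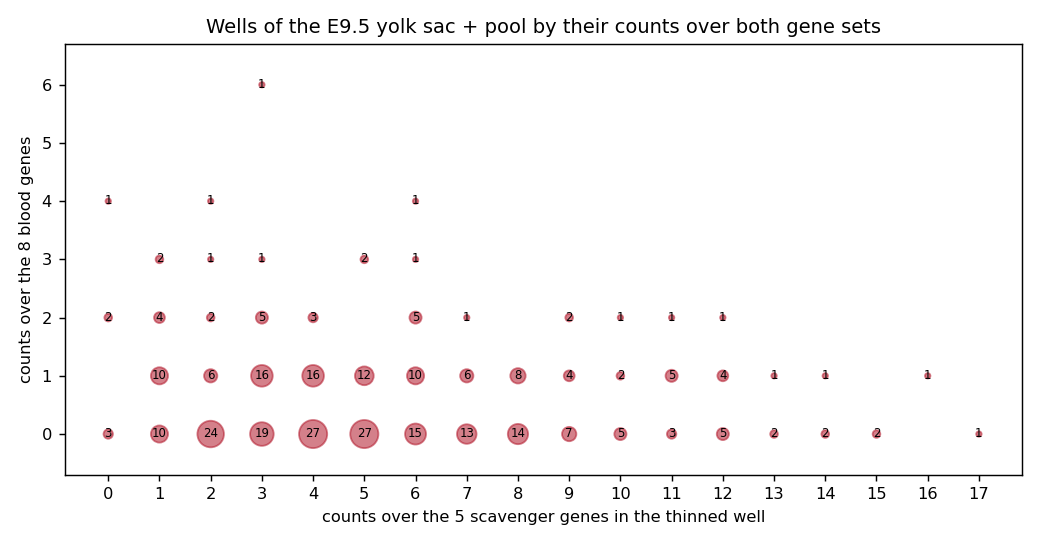
Number of thinned wells by counts over the 5 scavenger genes (x axis) and over the 8 blood genes (y axis), 319 wells in all. Of the wells with at least 2 blood counts (38), 3 have 0 scavenger counts and the others have 1 to 12, where 313 of all 319 wells have at least 1.

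Pairs of genes were counted in the same wells. Stab2 had a count in 24 of 37 thinned wells with Runx1 (64.9%, 47.5% to 79.8%) and in 218 of 282 without (77.3%, 72.0% to 82.1%), and Lyve1 in 29 of 37 and 230 of 282. With Rac2, Stab2 was found in 33 of 44 wells (75.0%), and without it in 209 of 275 (76.0%). Intervals overlapped in each of these 3 pairs. Mrc1 was found in 11 of 37 wells with Runx1 (29.7%) and 133 of 282 without (47.2%), but in unthinned wells the shares were 70.8% and 65.6%. Rac2 was found in 6 of 37 wells with Runx1 and 38 of 282 without, and in unthinned wells in 38.9% and 21.9%, so most wells with Runx1 had no count of Rac2 at either depth. Kit was found in 11 of 37 wells with Runx1 (29.7%, 15.9% to 47.0%) and 28 of 282 without (9.93%, 6.70% to 14.0%). Another random draw gave 7 of 39 (17.9%) and 29 of 280 (10.4%), and unthinned wells gave 36.1% and 14.6%.

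Rank correlations across the 319 wells, which share 1 chip and 1 sort, were weak: 0 of 2505 genes reached 0.3 in size with Stab2 or with Runx1. The nearest genes are given as a description, since another random draw kept 2 of the 8 for Stab2 and 1 of the 8 for Runx1. The genes nearest to Stab2 were Ptprm (0.28), Raph1, Ldb2, Rai14, Col4a1, Fam49b, Meis2 and Colec12 (0.22), and those nearest to Runx1 were Arhgap6 (0.24), Kit (0.20), Lrrfip1, Phf20, Etl4, Abracl, Pcna and Dhx15 (0.19). Stab2 itself correlated with Mrc1 at 0.18, with Lyve1 at 0.10 and with Runx1 at -0.13. Summed over lists, scavenger counts correlated with basement membrane counts at 0.37, endothelial counts at 0.32 and lysosomal counts at 0.28, with haemoglobin at -0.13 and with blood-set counts at -0.07. They also correlated at 0.35 with the number of genes per thinned well, and its part in the other values was not tested. The ratio of variance to mean was 1.84 for Stab2, 1.53 for Lyve1, 1.49 for both Cdh5 and Runx1, and 1.36 for Mrc1, against a median of 1.07 over 2506 genes. It was higher for Vegfc (3.05) and for Mecom, a factor of haemogenic endothelium (2.76), each with up to 11 counts in a thinned well.

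The 3 wells of blood type held 22741 counts in all, too few to describe a class. Of 3332 genes compared with the 166 scavenger-type wells, 948 (28.5%) were at least 2-fold higher and 260 (7.80%) lower, and 11 of the 12 furthest above had at least 90% of their counts in 1 of the 3 wells, led by Pigl, Ahi1 and Slc44a4. The furthest below were Macf1, Ldb2, Colec12 and Plvap, each with 1 count in the 3 wells. The 38 blood-rich wells, a class chosen after the data had been seen, held 198258 counts. Of 4103 genes, 216 (5.26%) were at least 2-fold higher and 223 (5.44%) lower there than in scavenger-type wells, with an all-gene median of 0.05. Among the 12 furthest above, 11 again had most of their counts in 1 well, led by Retn, Plekha7 and Abca3. Slc25a20, the carnitine carrier of mitochondria, was the exception, with 23 counts over 7 wells. The furthest below was Reln, the secreted glycoprotein reelin, with 2 counts against 68, or 10.1 CPM against 97.5, a log2 ratio of -3.27 (-6.35 to -1.36).

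Lists were also summed in the blood-rich wells, with the 13 genes of the 2 sets left out. Endothelial markers were lower, at 1982 CPM summed against 2804 in scavenger-type wells, a log2 ratio of -0.50 (-0.66 to -0.34), and still far above the 58.8 CPM of the yolk sac negative pool. Basement membrane genes stood at 1412 against 2371 CPM, at -0.75 (-0.94 to -0.56), venous genes at 393 against 803, at -1.03 (-1.39 to -0.69), and the other clearance receptors at 666 against 993, at -0.58. The other progenitor genes stood at 762 against 480 CPM, at 0.66 (0.38 to 0.95), with 3 of 7 at least 2-fold higher. Macrophage markers stood at 494 against 209 CPM, at 1.24 (0.85 to 1.62), and at 0.88 (0.45 to 1.30) without the deepest of the blood-rich wells. Granulocyte and mast cell genes stood at 192 against 54.5 CPM, at 1.81 (1.13 to 2.50), and erythroid genes at -0.41 (-0.43 to -0.39). Cell cycle, DNA replication, lysosomal and endothelial-to-blood factor lists lay between -0.06 and 0.10, with intervals that include 0. Stress genes, which respond to handling, stood at 0.36 (0.14 to 0.57), and their part in the other values was not tested. The classes were chosen by blood and scavenger counts, and scavenger counts went with endothelial and basement membrane counts across wells, so all of these ratios describe the choice as well.

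**Figure D5:**
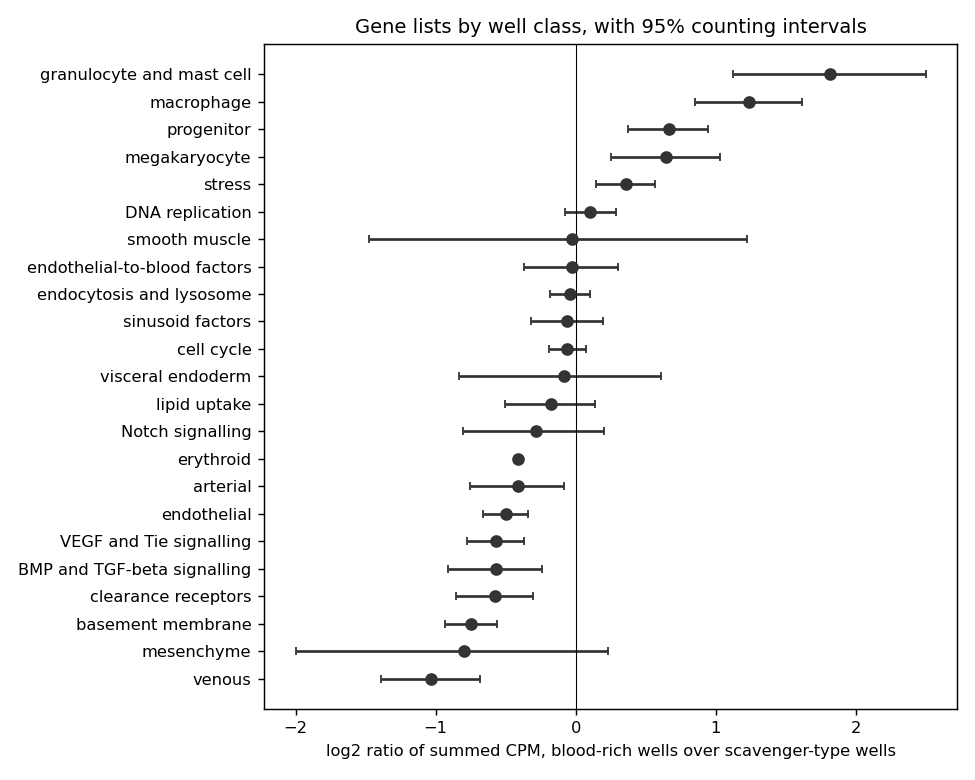
Log2 ratio of the summed CPM of each list in 38 blood-rich over 166 scavenger-type wells (x axis), without the 13 genes that defined the classes, 1 point per list with its 95% counting interval. Granulocyte and mast cell genes (1.81) and macrophage markers (1.24) lie highest, and venous genes (-1.03) and basement membrane genes (-0.75) are below 0.

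Macrophage markers were also counted per well, without thinning. Of the 16 markers, 148 wells held none, 113 held 1 and 42 held 2, and 8 wells held at least 5. These 8 wells were picked by the same markers, so their share of the marker counts was partly set in advance. Depth entered the pick as well: 16701, 10995, 9833 and 8094 counts were held by wells among them, against a pool median of 3961. The 8 wells held 48.0% of the Lyz2, 60.9% of the C1qc and 53.8% of the Cd68 counts of the pool. They held 24.6% of the counts of Fcer1g and 22.4% of those of Tyrobp, which had counts in 83 and 50 wells. The well with most markers held 13, with 28 counts of Lyz2, 77 of Retnla and 35 of H2-Aa, a class II antigen presentation gene, and still had 8 endothelial markers and 1 count each of Cdh5 and Stab2. The well with 11 markers held 7 endothelial markers, 6 counts of Mrc1 and 0 of Stab2. Csf1r had 11 counts in 11 wells, Adgre1 3 and Cd163 1 in the whole pool. How these markers came to lie in wells with endothelial genes was not tested.

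Unsupervised grouping split the pool into clusters that differed in levels of scavenger, red cell, blood and macrophage genes. Leiden clustering gave 6 clusters of 111, 103, 48, 32, 24 and 7 wells, which are left unnamed. The cluster of 103 wells had the highest Stab2 (1550 CPM) and Maf (299 CPM) of the 6, with Mrc1 at 585 CPM against 786 CPM in the cluster of 7 wells, and the cluster of 111 wells had lower Stab2 (599 CPM) and Cdh5 (343 CPM) with a median haemoglobin share of 21.2%, and its leading genes included the red cell genes Ank1, Kel and Rhag. The cluster of 32 wells had the highest Runx1 (251 CPM) and Rac2 (316 CPM) of the 6, and the lowest Stab2 (348 CPM), Lyve1 (445 CPM) and Maf (102 CPM). Its Mrc1, at 190 CPM, was above the 135 CPM of the cluster of 24 wells. Cdh5 stood at 246 CPM and haemoglobin at 11.9% in these 32 wells, and their leading genes came mostly from single wells. The 24 wells were led by Cav1, Mmrn1, Ifi27l2a and Ifitm3. Of the counts of these genes in the cluster, 1 well held 54.5% for Cav1, 52.0% for Mmrn1, 45.7% for Ifi27l2a and 33.3% for Ifitm3. Cav1 was found in 4 of the 24 wells. The 7 wells were led by Retnla, Ctss, H2-Ab1, H2-Aa, Ccl6 and Lyz2, with Retnla and H2-Aa found in 2 of the 7. At least 3 endothelial markers were found in 94 of the 111 wells, 31 of the 32 and all of the 7.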

How the data were processed

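Single cells were captured on 2 ICELL8 chips, and the deposited tables of the authors hold raw counts per gene and well, not normalized. Per the submitters' processing notes, FastQC, cutadapt and STAR were used with the builds mm10 and GRCm38. The counting tool, the annotation and any use of molecular identifiers are not given in the sources used here, so a count may be a read or a molecule. Wells were assigned by the deposited annotation of each chip. Of the E9.5 table's 20573 gene rows, 4068 carried only an ID, of which 3995 were matched to a symbol. Wells with at least 500 detected genes were kept. Levels are CPM, from counts summed over a pool's wells and scaled to 1e+06. Log2 ratios carry exact conditional binomial 95% intervals, CPM exact Poisson intervals and shares Clopper-Pearson intervals. A gene was called apart at 2-fold with at least 20 counts over the pair. Where a pool had 0 counts, 3 counts took its place in the ratio. With 1 pool per group no test was made.

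Wells were thinned to 2000 counts with a fixed seed. Clusters used counts without haemoglobin, mitochondrial and ribosomal protein genes and Gm42418, scaled to 10000 per well, with 1500 variable genes, 20 principal components, 15 neighbours and a resolution of 0.8. Named genes were the 15 highest and 10 lowest by the smaller ratio to both E9.5 pools (at least 50 counts and 10% of wells in the higher pool), 8 per direction against E11.5, 12 per direction between well classes (at least 30 counts) and 8 correlated genes each for Stab2 and Runx1. Ribosomal protein, haemoglobin, mitochondrial and unnamed genes were left out of these rankings. Other named genes are examples from 25 gene lists. The members, lists and rules were chosen with earlier results of these data known. Intervals and the class rule were tested on simulated data, and thinning on the counts of the pool itself. The simulated wells held counts of 1 set only, unlike most wells here, so that test does not show how well the classes part real wells. Python 3.11.15, scipy 1.17.1, scanpy 1.11.5 (with its Scrublet), leidenalg 0.10.2 and, for TMM factors, edgeR 4.0.16 in R 4.3.3 were used.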

Additional observations from a re-analysis of the deposited data

Results flagged for a closer look

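For 6 of the named genes, the yolk sac positive pool lay on opposite sides of the AGM positive pool at the 2 stages, with 1 pool per stage and tissue. The difference between stages was not tested, and stage and chip cannot be told apart. Runx1 had a log2 ratio of yolk sac over AGM of 1.91 at E9.5 (120 and 44 counts) and -1.57 at E11.5 (59 and 121 counts). Rac2 went from 4.67 (148 and 8 counts) to -2.02 (25 and 70 counts), and Lyz2 from 5.55 (102 and 3 counts) to -4.51 (15 and 237 counts). These 3 genes of blood cells were thus on the yolk sac side at E9.5 and on the AGM side at E11.5. Mmrn1, the endothelial and platelet glycoprotein, had ratios of 0.48 (94 and 93 counts) and -5.70 (1 and 36 counts). Acta2, the smooth muscle actin, went the other way, from -1.66 (14 and 61 counts) to 0.97 (85 and 30 counts), and so did the red cell gene Ermap, from -0.74 (80 and 184 counts) to 0.53 (169 and 81 counts).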

How the results depend on the processing

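No paired analysis was possible because each group is 1 pool with no replicate number. Against the AGM positive pool, a minimum of 100 counts gave 194 higher and 46 lower genes, and at least 1 count gave 3833 and 2176. Against the yolk sac negative pool, TMM factors gave 1782 higher and 910 lower genes, totals without haemoglobin, mitochondrial genes and Gm42418 gave 2507 and 491, a minimum of 100 counts 1379 and 79, and at least 1 count 8839 and 454. Against E11.5, the same settings gave 1123 and 1001, 933 and 1197, 1200 and 87, and 5062 and 2424, and wells with at least 1000 genes gave 1798 higher. Scavenger-type wells were 34.8% without thinning and 44.5% with at least 3 counts over a set. Mixed wells were 15.4% at 1000 counts and 63.9% without thinning, where 0 wells were of blood type. Dropping the condition on scavenger counts gave 11.9% blood-rich wells. Clusters numbered 3 at a resolution of 0.4 and 13 at 1.2. Of the 8 genes nearest to Stab2, 2 were kept at 1000 counts and 2 with another draw, and of those nearest to Runx1, 0 and 1. Of 1315 alternative values of 123 gene ratios, 1215 moved by less than their interval, 100 by more and 0 changed the sign of a called value. The minimum of 100 counts and that of 1 count choose genes and leave each ratio as it is. Their 85 and 123 values, all among the 1215, therefore could not move and say nothing about stability. TMM factors account for 46 of the moves, totals without haemoglobin for 33 and the 1000-gene minimum for 17. Without the deepest well, the log2 ratio of Plxdc1 moved from 0.83 to 0.24 over the AGM and from 1.30 to 0.72 over the yolk sac negative pool. Leaving out that well, keeping wells with at least 3 endothelial markers and the blood-rich class were chosen after seeing the data. Depth limits the blood genes, since the median thinned well had 0 counts over that set.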

Other observations

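Lipid-handling and signalling genes differed between the E9.5 yolk sac and AGM positive pools in single members. Over all genes 9.45% were at least 2-fold higher and 3.58% lower. Of 7 tested genes of lipid uptake, 4 were at least 2-fold higher in the yolk sac: Cd36, Fabp5, a fatty acid binding protein at 257 against 122 CPM, Lpl, the lipoprotein lipase, at a log2 ratio of 2.63 (1.03 to 4.65), and Pltp, the phospholipid transfer protein, at 23.9 against 1.05 CPM (2 counts), a log2 ratio of 4.50 (2.54 to 7.61). Cd36 and Pltp passed the minimum of counts mostly through the yolk sac pool, so the count of 4 was partly set in advance. Acsl3, which activates fatty acids, was lower, with a log2 ratio of -1.18 and an interval of -2.54 to 0.01. Among 18 genes of BMP and TGF-beta signalling, Tgfbr2, a receptor subunit, stood at 77.4 against 28.9 CPM, and Id2, a target of BMP signals, had a log2 ratio of -1.28. Of 13 Notch genes, 0 were higher and 3 were lower, with Notch3, a receptor of mural cells, at 3.62 against 26.8 CPM beside Hey1 and Hey2. Vwf, a clotting glycoprotein of endothelium and platelets, was the lower megakaryocyte gene, at 15.2 against 35.7 CPM.

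The deepest well, with 16701 counts or 1.21% of the pool, held 12 counts of Rac2, 1 of Runx1 and 3 of Cdh5 with 9 endothelial markers. It also held 93.3% of the pool's counts of Impg1, 65.6% of those of Tsr2 and 59.2% of those of Mcub. The second deepest well held 14736 counts. The stem cell RNA control of the E9.5 chip, 46 wells with 310576 counts, held 0 counts of Cdh5 and Maf, 5 of Lyve1, 2 of Runx1 and 1 each of Stab2 and Mrc1.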
